A study of Mus musculus with 51 samples.

Results

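Kit, Elf5, Cd14, Wfdc18, Cd55 and Aldh1a3 are used as markers of luminal progenitors, the mammary cells that line the ducts and can give rise to alveolar, milk-producing cells. The 6 genes were taken by name, from 52636 genes in each table, and all 6 passed the filter on low counts in every fit. Their levels were followed in 51 RNA-seq libraries of sorted mouse mammary cells, which form 17 groups of 3. Mice were 6 months old and either wild type (WT) or carriers of D542G or Y541S, listed in the labels as estrogen receptor mutations. Mice of every group carried hormone pellets of estradiol and progesterone, and then received vehicle (MCT) or giredestrant, an estrogen receptor antagonist and degrader, at 30 mg/kg by mouth once a day for 4 days. Mature luminal (ML) and basal (Basal) cells were sorted in all genotypes and treatments. Luminal progenitors (LP) were analysed with giredestrant only, and a separate sorted population, labelled N, in both mutants with giredestrant only. No vehicle-treated LP group was analysed here, so the effect of giredestrant within the LP gate was not measured.

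Kit is a receptor tyrosine kinase at the cell surface, whose ligand is stem cell factor (Kitl). Cd14 is a membrane-anchored co-receptor that passes lipopolysaccharide to Toll-like receptor 4, and Cd55 is a membrane-anchored protein that restrains complement on the cell's own surface. Elf5 is a transcription factor of the ETS family that acts with prolactin signalling in alveolar differentiation. Wfdc18 is a small secreted protein with a whey acidic protein domain. Aldh1a3 is an aldehyde dehydrogenase that makes retinoic acid from retinaldehyde. Estrogen and progesterone receptors mark mature luminal cells, whereas luminal progenitors are mostly without them. Which surface markers defined the sort gates is not stated in the labels, so whether Kit, Cd14 or Cd55 took part in a gate is unknown, and differences between populations may partly be the sort itself.

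Promoter windows of Kit, Elf5 and Wfdc18 are shown because their levels separated the luminal libraries from all others, as described below. Each is the 250 bases before a RefSeq start site on GRCm38.p6, written 5′ to 3′ on the gene's strand, with the ETS core GGAAG, read on either strand, in capitals. The windows are chr5:75574737-75574986 for Kit, chr2:103411848-103412097 for Elf5 and chr11:83708754-83709003 for Wfdc18.
Kit: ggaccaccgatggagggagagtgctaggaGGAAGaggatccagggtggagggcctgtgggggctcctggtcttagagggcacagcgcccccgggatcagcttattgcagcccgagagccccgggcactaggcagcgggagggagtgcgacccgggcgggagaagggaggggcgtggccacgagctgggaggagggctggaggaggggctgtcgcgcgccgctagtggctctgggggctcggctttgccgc
Elf5: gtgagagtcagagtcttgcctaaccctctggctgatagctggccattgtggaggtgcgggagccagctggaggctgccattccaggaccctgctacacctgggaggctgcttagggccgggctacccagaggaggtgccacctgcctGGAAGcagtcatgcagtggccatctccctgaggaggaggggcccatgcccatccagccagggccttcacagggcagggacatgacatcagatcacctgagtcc
Wfdc18: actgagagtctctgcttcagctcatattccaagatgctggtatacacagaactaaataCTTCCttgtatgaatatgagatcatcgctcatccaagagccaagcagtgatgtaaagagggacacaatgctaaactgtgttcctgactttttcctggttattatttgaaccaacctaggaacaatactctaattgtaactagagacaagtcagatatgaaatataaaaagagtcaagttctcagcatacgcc
The ETS core occurred once in each of the 3 windows, and in 64.1% of 32851 promoter windows of this length. The other letters searched on both strands were the estrogen response half-site GGTCA (in 35.2% of windows), the STAT pattern TTCNNNGAA (7.02%) and the steroid receptor half-site TGTTCT (16.1%). None of these 3 patterns was found in the 3 windows shown, which says only that these letters are not in these windows. Elf5 has a second RefSeq window, chr2:103423818-103424067, which held 0 ETS cores, as did the window of Cd55, and a second window of Kit overlaps the first and held the same 1. The second start of Elf5, not that of the window printed, lies in a transcript of the GENCODE annotation. The bases after the printed Wfdc18 start are not wholly in a GENCODE transcript either, while those of Kit are. The other 3 patterns were not found in any of these windows either. No window of Cd14 or Aldh1a3 was searched.

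On GRCm38 the annotated spans were chr5:75574916-75656722 for Kit, chr2:103411688-103450989 for Elf5, chr18:36725067-36726798 for Cd14, chr11:83709015-83711348 for Wfdc18, chr1:130439027-130462744 for Cd55 and chr7:66390890-66427517 for Aldh1a3. Kit, Elf5 and Wfdc18 lie on the plus strand and the other 3 on the minus strand. A second annotated gene, Gm16083, overlapped 3.5% of the exon bases of Cd55.

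Levels are read counts scaled to a common library size (CPM) with the trimmed mean of M values (TMM), and a ± after a level is the SD over 3 libraries. All 6 genes were at their highest in ML or LP libraries and at their lowest in a vehicle-treated Basal group. For Kit, Elf5 and Wfdc18, all 27 ML and LP libraries lay above all 24 Basal and N libraries. The same held for 0.466% of 12455 genes with at least 5 CPM in a group mean. The lowest luminal library had 179.9 CPM of Kit, against 141.7 in the highest Basal or N library. The same bounds were 43.8 and 37.7 CPM for Elf5, and 1158 and 826 CPM for Wfdc18. The separation was not complete for the other members, with 1 luminal library of Cd14, 3 of Aldh1a3 and 11 of Cd55 below the highest Basal or N library. Between the highest and the lowest group the ratio of mean levels was 41.4 for Kit, 48.5 for Elf5, 53.4 for Cd14, 39.5 for Wfdc18, 19.8 for Cd55 and 55.6 for Aldh1a3. In the order of group means, most neighbours overlapped: of 16 neighbouring pairs, the libraries did not overlap in 2 for Kit, 2 for Elf5, 1 for Wfdc18, 2 for Cd55 and 0 for Cd14 and Aldh1a3. Neighbours were not counted in this way for other genes, so these counts are not a trait of the members.

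**Figure D1:**
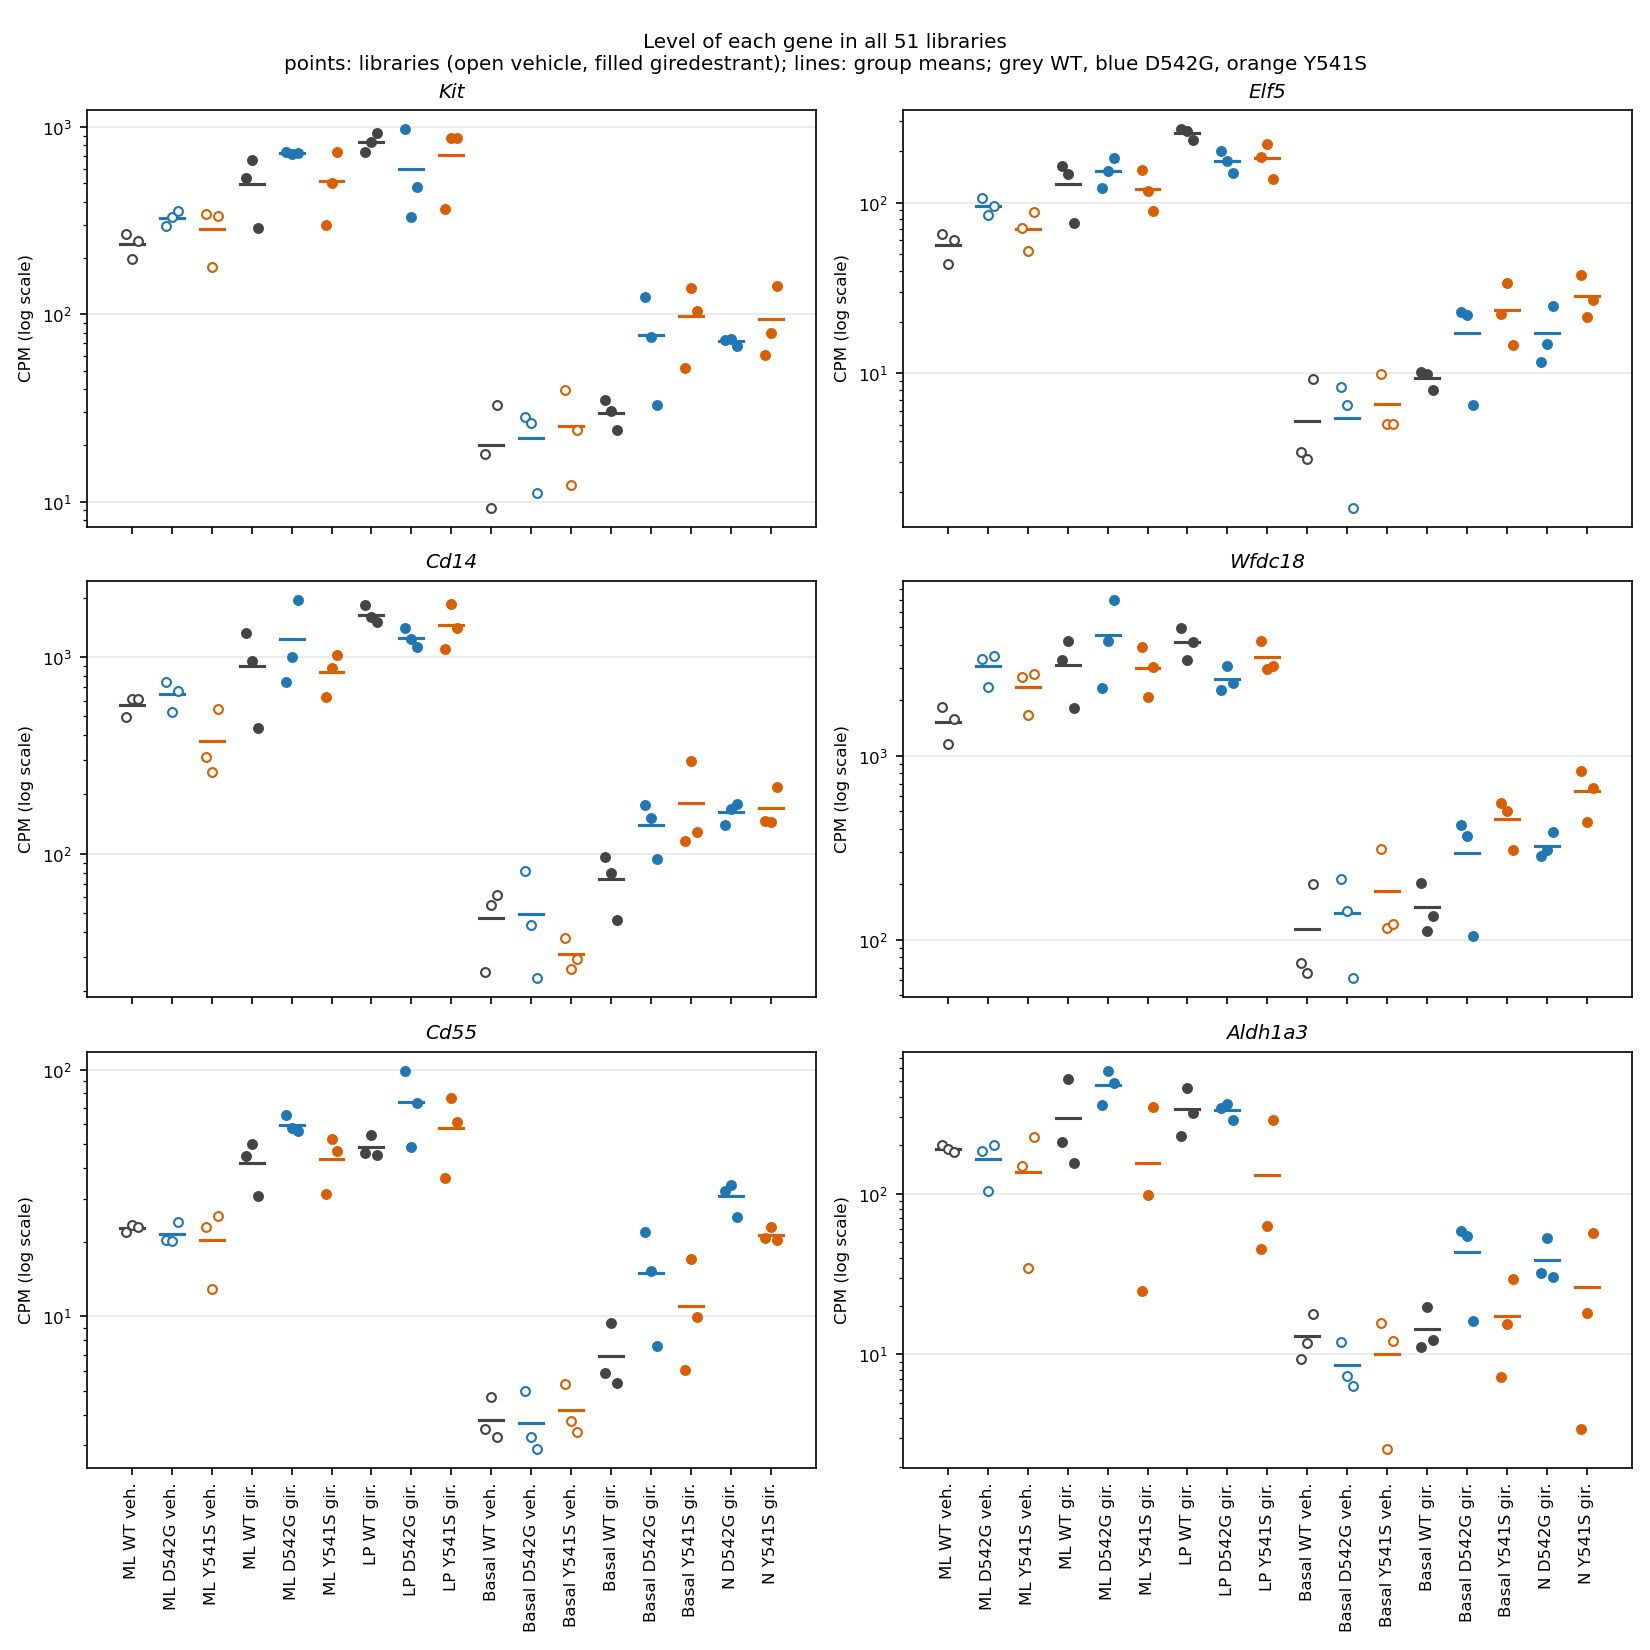
CPM on a log scale (y axis) of each gene in the 17 groups (x axis), with 1 point per library and a line at the group mean; open points are vehicle and filled points giredestrant. ML and LP libraries lie above Basal and N libraries for Kit, Elf5 and Wfdc18 without overlap, while 11 luminal libraries of Cd55 lie below its highest Basal or N library.

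Compared per kilobase of exon, which allows genes to be set against each other, Wfdc18 was the most abundant member. In WT LP libraries with giredestrant it reached 3376 ± 673 CPM per exonic kb, followed by Cd14 with 947 ± 96.9. Kit stood at 92.9 ± 10.99, Aldh1a3 at 72.2 ± 24.3, Elf5 at 43.5 ± 3.31 and Cd55 at 9.99 ± 1.04 CPM per exonic kb in the same libraries. Thus the members span a wide range, and Cd55, the lowest, is also the one that separates the populations least.

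The ML and Basal gates were compared first in WT mice with vehicle, the reference state under hormone pellets. In edgeR's quasi-likelihood test, all 6 members were higher in ML, where 56.6% of all genes tested were called in either direction. A gene was called where its p, adjusted by Benjamini and Hochberg's method over all genes tested, was under 0.05. Aldh1a3 measured 199.8, 190.0 and 180.9 CPM in ML and 9.31, 11.8 and 17.9 CPM in Basal, a log2 ratio of 3.82 ± 0.63 (SE; adjusted p = 9.12e-05). Cd55 had the smallest ratio, at 2.53 ± 0.27 (adjusted p = 9.26e-07), with 21.9, 23.4 and 23.1 CPM in ML. ML cells of vehicle-treated WT mice thus held measurable levels of all 6 progenitor markers, together with 5359 to 6278 CPM of 11 summed mature luminal markers. In such bulk libraries, a change in the share of cells of a type and a change of RNA per cell cannot be told apart. The labels do not say which libraries came from which animal, so p-values measure only the spread between these samples.

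Giredestrant was then compared with vehicle in ML cells. In WT mice 4 of the 6 members rose, Kit, Elf5, Wfdc18 and Cd55, where 34.1% of all genes were called. Kit measured 266.9, 198.3 and 245.0 CPM with vehicle and 532, 670 and 290.4 CPM with giredestrant. The log2 ratio was 1.11 ± 0.31 (adjusted p = 0.0124). All 3 giredestrant libraries lay above the vehicle libraries, but the third did so only narrowly.

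Elf5 gave the largest ratio of the 6 in WT. Its levels were 65.3, 43.8 and 60.4 CPM with vehicle and 164.0, 147.6 and 76.0 CPM with giredestrant, a log2 ratio of 1.23 ± 0.28 (adjusted p = 0.00331). Cd55 went from 21.9, 23.4 and 23.1 CPM to 44.4, 49.8 and 30.7 CPM, by 0.90 ± 0.23 on the log2 scale (adjusted p = 0.00684). For both genes the groups did not overlap, and the third giredestrant library was again the lowest of its group. Wfdc18 measured 1834, 1158 and 1589 CPM with vehicle and 3291, 4180 and 1806 CPM with giredestrant. Its log2 ratio was 1.05 ± 0.38 (adjusted p = 0.0416), with an overlap of the third giredestrant library and the first vehicle library. Neither Cd14 (0.69 ± 0.39, adjusted p = 0.181) nor Aldh1a3 (0.66 ± 0.71, adjusted p = 0.502) passed. Cd14 measured 1323, 954 and 434.7 CPM with giredestrant and Aldh1a3 209.4, 518 and 154.8 CPM, so that the third library lay below every vehicle library for both.

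The third WT giredestrant library also stood apart in the mature luminal markers. Their sum was 5475 CPM there and 3392 and 3035 CPM in the others, while the sum of the 6 genes was 2792 CPM against 5563 and 6519 CPM. The vehicle libraries held 2227 to 2881 CPM of the 6 genes. Wfdc18 gave the largest part of the sum of the 6 genes in every library of the series. The part of the cell mixture in these values was not tested. Wfdc18 lost its call without any 1 of 5 libraries (vehicle 1, 2 or 3, giredestrant 1 or 2; adjusted p 0.0588 to 0.175), and Kit without vehicle library 2 (0.0582) or giredestrant library 2 (0.0723). In a fit of all 51 libraries, Kit (adjusted p = 0.0749) and Wfdc18 (0.0849) did not pass, while Elf5 and Cd55 did. Scaling by total count in place of TMM moved the median of all genes by 0.486 on the log2 scale in this comparison, and Cd14 was then called as well, at 1.19 (adjusted p = 0.0207). All called genes split into 2939 higher and 2925 lower with TMM, and into 7001 and 1170 with total counts.

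In D542G ML cells, Kit and Cd55 rose with giredestrant, 2 of the 6, where 20.6% of all genes were called. Kit was 295.8, 332.8 and 354.5 CPM with vehicle and 735, 721 and 727 CPM with giredestrant, a log2 ratio of 1.15 ± 0.31 (adjusted p = 0.0188). Cd55 was 20.4, 20.2 and 24.2 CPM with vehicle and 65.5, 57.9 and 56.2 CPM with giredestrant, by 1.47 ± 0.23 (adjusted p = 0.00141). Neither gene's groups overlapped, and both were even across the giredestrant libraries. Kit lost its call without vehicle library 1 (adjusted p = 0.0555) or 2 (0.0713), without giredestrant library 2 (0.0508), and in the fit of all 51 libraries (0.0758).

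The other 4 members had ratios above 0 in D542G that did not pass, and they varied far more between libraries. Wfdc18 measured 2321, 4175 and 7014 CPM with giredestrant and Cd14 747, 996 and 1951 CPM. Their log2 ratios were 0.56 ± 0.37 (adjusted p = 0.296) and 0.93 ± 0.39 (adjusted p = 0.1002). Elf5 gave 0.68 ± 0.28 (adjusted p = 0.0896) and Aldh1a3 1.54 ± 0.73 (adjusted p = 0.141), although for both all giredestrant libraries lay above all vehicle libraries. The third giredestrant library, highest for Wfdc18 and Cd14, had the least of the summed mature luminal markers (1140 CPM, against 3158 and 2035). It also had the highest sum of the 6 genes (10420 CPM, against 4345 and 6686). Most of that sum was Wfdc18, and Kit, Cd55 and Aldh1a3 were not at their highest in this library. The same library held 271 CPM of 10 summed macrophage and other immune markers, against 53.4 and 57.5 CPM, and 75.6 CPM of 6 mast cell markers, against 0.323 and 0.199 CPM. Mast cells are known to carry Kit, and macrophages Cd14. The part of such cells in the Kit and Cd14 levels was not tested.

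In Y541S ML cells, Cd14 and Cd55 rose, 2 of the 6, where 24.9% of all genes were called. Cd14 was 309.7, 260.7 and 546 CPM with vehicle and 623, 876 and 1025 CPM with giredestrant, a log2 ratio of 1.17 ± 0.39 (adjusted p = 0.0383). Cd55 was 23.0, 12.9 and 25.5 CPM with vehicle and 31.3, 52.2 and 46.6 CPM with giredestrant, by 1.08 ± 0.23 (adjusted p = 0.00405). Neither gene's groups overlapped. Cd14 lost its call without vehicle library 1 (adjusted p = 0.113) or 2 (0.132), or without giredestrant library 2 (0.097) or 3 (0.103).

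Kit (0.83 ± 0.31, adjusted p = 0.0611) and Elf5 (0.78 ± 0.28, adjusted p = 0.0507) came close in Y541S without passing. Both were called by DESeq2 (0.0292 and 0.0249) and under scaling by total count (0.0383 and 0.0252), and Elf5 also under another scaling (0.0488) and without the filter on low counts (0.0482). Wfdc18 gave 0.34 ± 0.37 (adjusted p = 0.547), from 2676, 1663 and 2770 CPM to 3870, 2087 and 3038 CPM, with wide overlap. In the same comparison, 5 of 5 endothelial markers and 5 of 7 fibroblast and pericyte markers rose. Their sums were 84.9 to 139.4 and 258.2 to 311.3 CPM with giredestrant, against 24.7 to 35.3 and 106.2 to 226.2 CPM with vehicle. Of 8 basal markers 3 rose, with a median log2 ratio of 2.06 over the 8. Of 8 tested macrophage and other immune markers 0 rose, though all 8 ratios were above 0, and the list summed to 22.6 to 72.8 CPM against 11.4 to 18.4 CPM. Of 11 mature luminal markers 2 fell. The part of such cells in the ratios of the 6 genes was not tested.

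Cd55 was thus called in ML cells of all 3 genotypes, and the other members in 1 or 2 genotypes or none. How many of all genes were called in all 3 was not counted. These member calls do not show that the genotypes differ. The difference of giredestrant effects between mutant and WT passed for 0 of 6 members in D542G (6.57% of all genes called) and 0 of 6 in Y541S (5.79%). In both, 0 members had an unadjusted p under 0.05 by edgeR and 0 were called by DESeq2. The difference was 0.57 ± 0.32 for Cd55 in D542G (adjusted p = 0.314), −0.55 ± 0.39 for Elf5 in D542G (adjusted p = 0.433) and −0.71 ± 0.53 for Wfdc18 in Y541S (adjusted p = 0.464). With SE of this size, only large differences could have been detected.

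**Figure D2:**
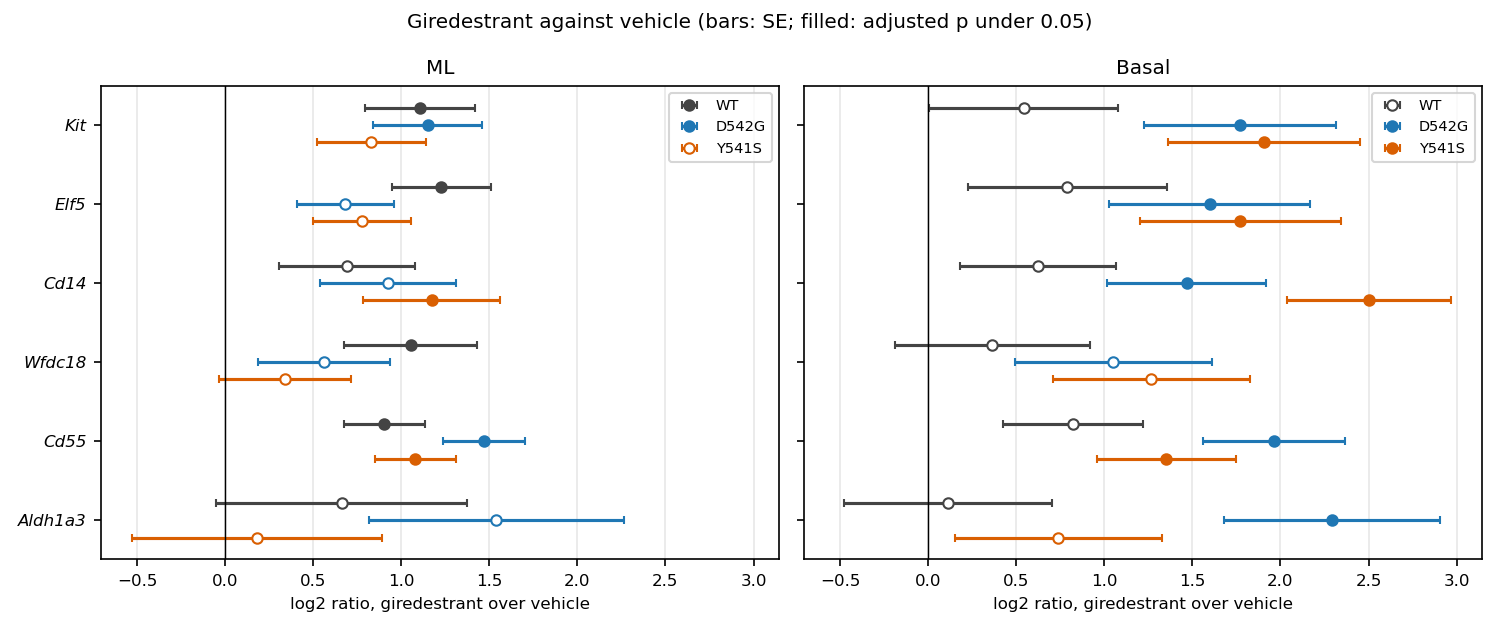
Log2 ratio of giredestrant over vehicle (x axis, bars SE) for each gene (y axis) in ML cells (left) and Basal cells (right) of the 3 genotypes; filled points have an adjusted p under 0.05. Cd55 is filled in ML cells of all 3 genotypes, and filled points in Basal cells number 0 in WT, 5 in D542G and 4 in Y541S.

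The mutants were compared with WT in ML cells under each treatment. With vehicle, 0 of 6 members were called in D542G (19.6% of all genes called) and 0 of 6 in Y541S (10.9%). Elf5 was 106.5, 84.5 and 95.8 CPM in D542G against 65.3, 43.8 and 60.4 CPM in WT, 0.80 ± 0.28 higher on the log2 scale (adjusted p = 0.0528). Wfdc18 was 3332, 2358 and 3459 CPM against 1834, 1158 and 1589 CPM, a log2 ratio of 1.04 ± 0.38 (adjusted p = 0.0631). For both, all D542G libraries lay above all WT libraries. These 2 members had an unadjusted p under 0.05, and both were called by DESeq2 (0.0334 and 0.0299). Scaling by total count, which moved the median of all genes by 0.365, called 3 members here, these and Kit. It split all called genes into 5067 higher and 704 lower, against 1610 and 1760 with TMM. In Y541S with vehicle, 0 members had an unadjusted p under 0.05 and 0 were called by DESeq2. Wfdc18 gave a log2 ratio of 0.66 ± 0.37 (adjusted p = 0.283) and Cd14 one of −0.60 ± 0.39 (adjusted p = 0.355).

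With giredestrant, 0 of 6 members were called between mutant and WT ML cells in D542G (2.60% of all genes called) and 0 of 6 in Y541S (15.1%), and DESeq2 called 0 in either. Cd55 in D542G was the 1 member with an unadjusted p under 0.05, with a log2 ratio of 0.53 ± 0.23 (adjusted p = 0.217). Aldh1a3 in Y541S gave −0.94 ± 0.72 (adjusted p = 0.391), with levels that spread over 24.8, 98.5 and 343.8 CPM.

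The giredestrant effect was also measured in Basal cells, where the 6 genes are low. In WT, 0 of 6 members were called (11.1% of all genes called), with 0 at an unadjusted p under 0.05 and 0 by DESeq2. Cd55 was 3.51, 4.70 and 3.25 CPM with vehicle and 5.89, 9.39 and 5.37 CPM with giredestrant, a log2 ratio of 0.82 ± 0.40 (adjusted p = 0.190). In D542G 5 of 6 members rose, all but Wfdc18, where 28.2% of all genes were called. In Y541S 4 of 6 rose, Kit, Elf5, Cd14 and Cd55, where 15.1% of all genes were called.

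In D542G Basal cells, Aldh1a3 went from 11.9, 7.38 and 6.35 CPM to 58.8, 54.4 and 16.0 CPM, with the largest log2 ratio of the 6, at 2.29 ± 0.61 (adjusted p = 0.0128). Cd55 went from 4.98, 3.25 and 2.90 CPM to 21.9, 15.3 and 7.57 CPM, by 1.96 ± 0.40 (adjusted p = 0.00345). Neither gene's groups overlapped, and for both the third giredestrant library was the lowest. Kit (1.77 ± 0.55, adjusted p = 0.0247), Cd14 (1.47 ± 0.45, adjusted p = 0.0241) and Elf5 (1.60 ± 0.57, adjusted p = 0.0469) followed. Wfdc18 had 419, 367 and 105.0 CPM with giredestrant, and its ratio of 1.05 ± 0.56 did not pass (adjusted p = 0.167).

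In Y541S Basal cells Cd14 had the largest ratio of any member under giredestrant. It went from 37.1, 26.0 and 29.1 CPM to 116.2, 296.2 and 128.8 CPM, by 2.50 ± 0.47 on the log2 scale (adjusted p = 0.00321). Kit went from 39.3, 12.3 and 24.2 CPM to 51.8, 138.0 and 104.2 CPM, by 1.91 ± 0.55 (adjusted p = 0.0279). For both genes the groups did not overlap, and the second giredestrant library was the highest. Elf5 (1.77 ± 0.57, adjusted p = 0.0462) and Cd55 (1.35 ± 0.40, adjusted p = 0.0310) also rose. Wfdc18 (1.27 ± 0.56, adjusted p = 0.144) and Aldh1a3 (0.74 ± 0.59, adjusted p = 0.444) did not pass.

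Even after these rises, each member's mean level in Basal cells stayed under that in ML cells of the same mutant with giredestrant. Single libraries of Aldh1a3 overlapped in Y541S, with 29.6 CPM in a Basal and 24.8 CPM in an ML library. The 6 genes summed to 262 to 822 CPM in D542G and 594 to 1000 CPM in Y541S Basal libraries with giredestrant, against 3733 to 10420 CPM in the ML libraries of both mutants with giredestrant. Markers of other cells moved in the same libraries. In D542G, 6 of 11 mature luminal markers rose and 1 fell, with sums of 979, 1034 and 558 CPM against 286.5 to 417.9 CPM with vehicle, and the third library was the lowest for these as for the members. In each mutant 4 of 5 endothelial markers rose, and summed to 156.9 to 314.9 CPM in D542G and 137.6 to 359.3 CPM in Y541S, against 67.0 to 129.7 CPM over the vehicle libraries of both. In Y541S 2 of 10 macrophage and other immune markers rose, Fcgr3 and Csf1r, and their list summed to 130.8 CPM in the second library, where Cd14 was highest, against 49.8 and 71.5 CPM. The part of such cells in the members' ratios was not tested.

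Several Basal calls ended without 1 library. In D542G, Elf5, Kit and Cd14 lost theirs without vehicle library 2 or 3 or without giredestrant library 1 or 2 (adjusted p 0.0542 to 0.140), and Aldh1a3 without vehicle library 2 (0.0592). In Y541S, Kit lost its call without vehicle library 2 or 3 or giredestrant library 2 or 3, Elf5 without vehicle library 2 or 3 or giredestrant library 1 or 2, and Cd55 without vehicle library 2 or 3 or giredestrant library 2 (adjusted p 0.0576 to 0.204). The calls of Cd55 in D542G and of Cd14 in Y541S held without each library. Scaling by total count ended the call of Elf5 in both mutants (adjusted p 0.0591 in D542G and 0.0695 in Y541S).

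The counts of 0, 5 and 4 members called do not show that the genotypes differ. The difference of giredestrant effects between mutant and WT Basal cells, a test added after seeing the data, passed for 0 of 6 members in D542G (0.629% of all genes called) and 0 of 6 in Y541S (4.46%). The 6 differences were all above 0 in both mutants. In D542G Aldh1a3 was the 1 member with an unadjusted p under 0.05 (2.18 ± 0.84, adjusted p = 0.192), and DESeq2 called 0. In Y541S this was Cd14 (1.88 ± 0.63, adjusted p = 0.0999), which DESeq2 called (adjusted p = 0.0252).

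Between genotypes under 1 treatment, Basal cells gave 0 member calls by edgeR. With vehicle, 0 of 6 passed in D542G (0.0582% of all genes called) and 0 of 6 in Y541S (0.157%), with 0 at an unadjusted p under 0.05 and 0 by DESeq2. With giredestrant, 0 of 6 passed in D542G (4.97% of all genes called) and 0 of 6 in Y541S (14.0%), but ratios were all above 0. Kit (1.34 ± 0.54, adjusted p = 0.158), Cd55 (1.08 ± 0.39, adjusted p = 0.117) and Aldh1a3 (1.55 ± 0.60, adjusted p = 0.141) had an unadjusted p under 0.05 in D542G, and DESeq2 called Cd55. In Y541S these were Kit (1.66 ± 0.54, adjusted p = 0.0517), Cd14 (1.23 ± 0.45, adjusted p = 0.0765), Wfdc18 (1.54 ± 0.56, adjusted p = 0.0792) and Elf5 (1.28 ± 0.56, adjusted p = 0.141), of which DESeq2 called Kit and Cd14. The fit of all 51 libraries called these 4 in Y541S. The 14.0% of all genes is that of the main fit, and the share in the fit of all 51 is not printed here.

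LP and ML cells were compared within each genotype under giredestrant. This asks whether the 6 markers set the LP gate apart from the ML gate. In WT their ratios were all above 0, but 0 of 6 passed (0.0664% of all genes called, or 11 genes). Elf5 was 269.4, 264.6 and 233.6 CPM in LP against 164.0, 147.6 and 76.0 CPM in ML, a log2 ratio of 0.98 ± 0.25 (adjusted p = 0.148). Cd14 was 1827, 1596 and 1501 CPM in LP against 1323, 954 and 434.7 CPM in ML, by 0.85 ± 0.38 (adjusted p = 0.300). Kit was 731, 826 and 927 CPM in LP against 532, 670 and 290.4 CPM in ML, by 0.73 ± 0.28 (adjusted p = 0.252). For these 3 genes LP and ML libraries did not overlap, and each had an unadjusted p under 0.05. How many of all genes showed no overlap was not counted, here or in the other comparisons of groups of 3. Samples of the same number deviated together in this comparison (r 0.177 to 0.436). With the sample number as a block, Elf5 passed (1.04, adjusted p = 0.0407), 1 of the 6, and 307 genes were called. DESeq2 also called Elf5 alone (adjusted p = 0.0192). In the same libraries the mature luminal markers summed to 1215 to 2406 CPM in LP and 3035 to 5475 CPM in ML.

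In D542G 0 of 6 passed (0.0438% of all genes called), with 0 at an unadjusted p under 0.05 and 0 by DESeq2. Wfdc18 was 2276, 3079 and 2465 CPM in LP and 2321, 4175 and 7014 CPM in ML, a log2 ratio of −0.79 ± 0.42 (adjusted p = 0.745). In Y541S 0 of 6 passed (2.30% of all genes called), and DESeq2 called 0. Cd14, with 1096, 1859 and 1410 CPM in LP, was the 1 member with an unadjusted p under 0.05, with a ratio of 0.79 ± 0.36 (adjusted p = 0.336). The Y541S LP libraries also held 3374 to 10250 CPM of 7 fibroblast and pericyte markers, against 258.2 to 311.3 CPM in ML, and up to 4622 CPM of basal markers. The part of such cells in the LP levels was not tested. The block by sample number called 55 genes in D542G, against 8 without it, and 0 of the 6 members in either mutant.

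LP and Basal cells differed in all 6 members in each genotype. In WT all 6 were higher in LP, where 38.6% of all genes were called, with log2 ratios from 2.80 ± 0.26 for Cd55 to 4.78 ± 0.32 for Kit. In D542G (31.0% of all genes called) the ratios ran from 2.31 ± 0.38 for Cd55 to 3.36 ± 0.42 for Elf5. In Y541S (25.0%) they ran from 2.40 ± 0.38 for Cd55 to 3.01 ± 0.38 for Cd14. Aldh1a3 was the least firm of them in the mutants. Its ratio of 2.94 ± 0.92 in D542G (adjusted p = 0.0195) lost its call without Basal library 3 (0.0862), and that of 2.91 ± 0.92 in Y541S (adjusted p = 0.0243) without Basal library 1 (0.105) or 2 (0.0803) or LP library 3 (0.220), where it fell to 1.63.

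The LP gate itself was compared between genotypes under giredestrant. For D542G against WT, 0 of 6 passed (0.0302% of all genes called), and for Y541S against WT 0 of 6 (3.54%), and DESeq2 called 0 in both. Elf5 was 200.5, 176.5 and 149.7 CPM in D542G and 184.4, 222.1 and 138.5 CPM in Y541S, below each of the WT libraries at 269.4, 264.6 and 233.6 CPM. The log2 ratios were −0.52 ± 0.18 (adjusted p = 0.230) and −0.51 ± 0.18 (adjusted p = 0.142). Unadjusted, Elf5 and Wfdc18 (−0.64 ± 0.23, adjusted p = 0.239) had a p under 0.05 in D542G, and Elf5 and Aldh1a3 (−1.35 ± 0.59, adjusted p = 0.213) in Y541S. Fibroblast and pericyte markers summed to 210.6 to 412.7 CPM in WT LP, 501.4 to 2715 CPM in D542G LP and 3374 to 10250 CPM in Y541S LP. Basal markers summed to 302.5 to 630.3, 144 to 422.7 and 605.4 to 4622 CPM in the same order. The part of such cells in these ratios was not tested.

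**Figure D3:**
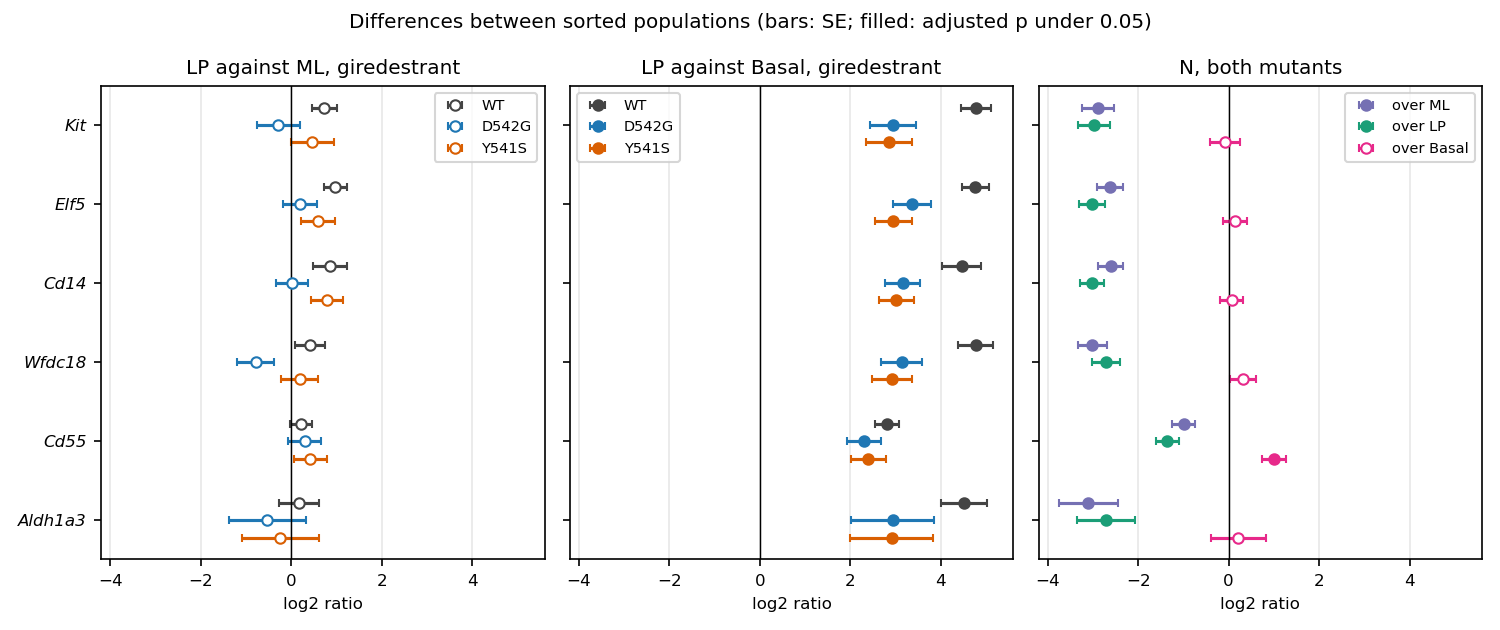
Log2 ratio (x axis, bars SE) of each gene (y axis) for LP over ML (left) and LP over Basal (middle) in the 3 genotypes, and for N over ML, LP and Basal in both mutants (right), all with giredestrant; filled points have an adjusted p under 0.05. All 6 genes are filled for LP over Basal and for N over ML and LP, and Cd55 is the 1 gene filled for N over Basal.

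The N population of the mutants was compared with the other populations under giredestrant. Over both mutants, all 6 were lower in N than in ML (29.9% of all genes called) and lower in N than in LP (36.4%). Kit in N was 72.6, 74.3 and 68.2 CPM in D542G and 61.0, 79.9 and 141.7 CPM in Y541S, a log2 ratio of −2.89 ± 0.36 against ML (adjusted p = 5.10e-06). Aldh1a3 had the lowest ratio against ML, at −3.10 ± 0.65 (adjusted p = 0.00121), and Cd55 the one nearest 0, at −0.99 ± 0.26 (adjusted p = 0.00623). The N libraries nevertheless held mature luminal markers at 2510 to 3574 CPM, near the range of the mutants' ML libraries (1140 to 3158 CPM with giredestrant), and basal markers at 11400 to 14550 CPM in D542G and 2117 to 4386 CPM in Y541S.

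Against Basal cells, Cd55 was the 1 member higher in N, where 44.7% of all genes were called. It measured 32.3, 34.2 and 25.3 CPM in D542G N and 20.9, 23.1 and 20.4 CPM in Y541S N, against 21.9, 15.3 and 7.57 CPM and 6.05, 17.1 and 9.94 CPM in Basal. The log2 ratio was 1.0 ± 0.26 (adjusted p = 0.00388), and the libraries did not overlap within either genotype. For the other members, adjusted p was 0.404 or higher in this comparison. Between the mutants, 0 of 6 members differed in N (9.12% of all genes called), with 0 called by DESeq2. Wfdc18, at 282.9, 307.3 and 382.9 CPM in D542G and 826, 434.7 and 667 CPM in Y541S, was the 1 with an unadjusted p under 0.05, with a ratio of 0.98 ± 0.42 (adjusted p = 0.146).

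Across the 27 ML and LP libraries, many with a high sum of the 6 genes had a low sum of the mature luminal markers. At one end, the WT vehicle ML libraries held 2227 to 2881 CPM of the 6 genes with 5359 to 6278 CPM of the mature luminal markers. At the other, the WT LP libraries held 6486 to 8038 CPM with 1215 to 2406 CPM. Single libraries and whole groups of the mutants did not follow this order. The second Y541S vehicle ML library was low in both, with 2203 and 2527 CPM. The D542G vehicle ML libraries held 3423 to 4807 CPM of the 6 genes with 1994 to 2419 CPM of the mature luminal markers. In the Y541S LP libraries these were 5841 to 6067 CPM with 800 to 1492 CPM. Of the 11 mature luminal markers, 7 fell and 1 rose in D542G against WT ML cells with vehicle. With giredestrant, 3 fell in WT ML cells. How far their sum follows cell type, genotype or treatment was not tested. Wfdc18 gave the largest part of the sum of the 6 genes. Both sums are shares of a library, and the libraries share their gates and scaling, so this is a description.

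**Figure D4:**
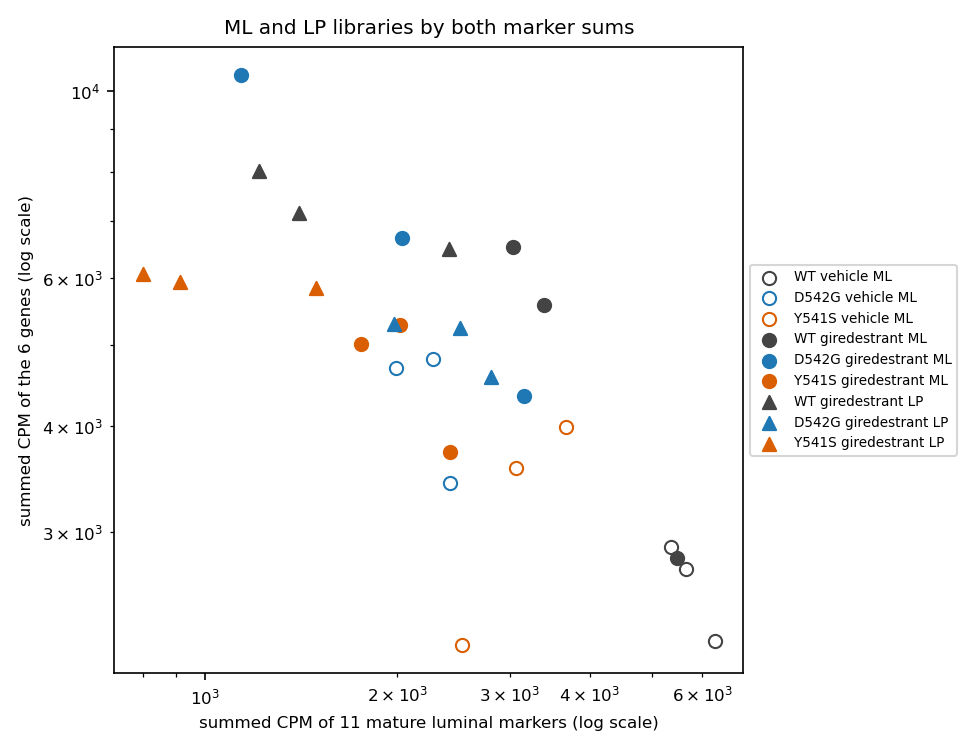
Summed CPM of the 6 genes (y axis, log scale) against summed CPM of 11 mature luminal markers (x axis, log scale) in each ML library (circles) and LP library (triangles), open for vehicle and filled for giredestrant. By both sums, the third WT giredestrant ML library, at 5475 and 2792 CPM, lies among the WT vehicle libraries. Gene by gene it lies above them for Kit, Elf5 and Cd55 and below them for Cd14 and Aldh1a3.

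Aldh1a3 was spread widely between libraries of 1 group in Y541S. In Y541S with giredestrant it measured 24.8, 98.5 and 343.8 CPM in ML, 45.3, 62.7 and 285.4 CPM in LP, 7.19, 15.5 and 29.6 CPM in Basal and 3.45, 18.1 and 56.7 CPM in N, for samples 1, 2 and 3. Sample 3 was the highest and sample 1 the lowest in all 4 populations. With vehicle, sample 2 was the lowest in ML (147.5, 34.6 and 226.2 CPM) and in Basal (15.6, 2.58 and 12.2 CPM). This was not particular to Aldh1a3. Sample 2 with vehicle was also the lowest for every other member in ML, and for Kit, Elf5, Cd14 and Wfdc18 in Basal. Same-numbered libraries of Y541S with giredestrant deviated together over all genes, with r of 0.423 to 0.647 between LP and ML and 0.462 to 0.523 between LP and Basal, so these values may not be independent between populations. Csn2, the milk protein beta-casein, ran the other way in the same libraries. It measured 11330, 3343 and 27.8 CPM in ML, 10190, 6789 and 54.1 CPM in LP, 1336, 979.9 and 10.8 CPM in Basal and 2950, 758 and 8.16 CPM in N, and with vehicle 15.2, 212.7 and 9.93 CPM in ML. Csn2 was chosen after its values were seen. Kit in ML had the same order as Aldh1a3 (300.3, 502 and 733.5 CPM), but Elf5 had the opposite one (155.0, 117.1 and 89.3 CPM).

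**Figure D5:**
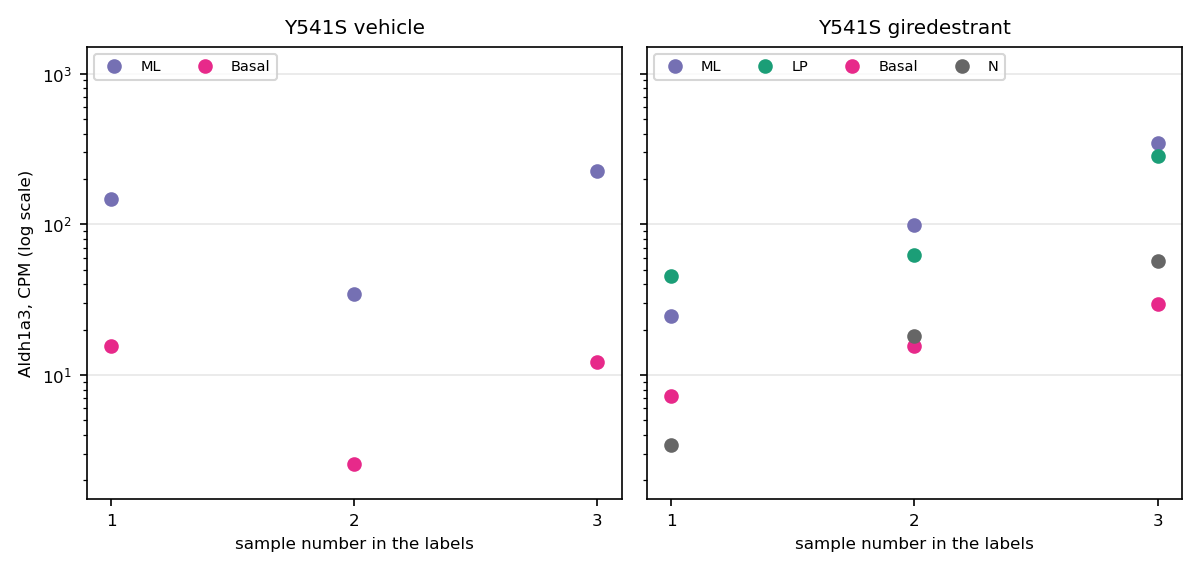
CPM of Aldh1a3 (y axis, log scale) by sample number in the labels (x axis) in each sorted population of Y541S mice, with vehicle (left) and giredestrant (right). Sample 3 is highest and sample 1 lowest in all 4 populations with giredestrant, and sample 2 is lowest in both with vehicle.

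The 6 genes followed each other closely over the 51 libraries, most of which differ by population. Pearson's r of log2 CPM was 0.82 to 0.98 over the 15 pairs, with a median of 0.92. Within groups, after each group's mean was removed, it was 0.10 to 0.87 in ML libraries (median 0.55) and 0.41 to 0.93 in Basal libraries (median 0.64). Among 11659 genes, those with the highest r to Kit were Slc5a1 (0.98), Muc20 (0.977) and Elf5 (0.969). For Elf5 they were Muc20 (0.981), Hhipl2 (0.98) and Plb1 (0.978), for Cd14 Muc20 (0.981), Tspan33 (0.976) and Muc1 (0.975), and for Wfdc18 Elf5 (0.977), Ogfrl1 (0.969) and Muc20 (0.961). Muc20 and Muc1, membrane mucins, thus stood near several members. Cd55 was nearest to Plet1 (0.97), Ephx2 (0.956) and Muc1 (0.952), and Aldh1a3 to Ntn1 (0.956), Slco1a5 (0.954) and Slc5a7 (0.954), which none of the other members named. These are descriptions, since the libraries share populations and scaling.

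Genes of the members' pathways were counted from set lists in ML cells under giredestrant, beside the 6 genes. The median log2 ratio of the 6 was 0.98 in WT, 1.04 in D542G and 0.80 in Y541S, against 0.08, 0.05 and 0.02 over all genes tested. The counts of called genes in each list stand beside the 34.1%, 20.6% and 24.9% of all genes that were called in WT, D542G and Y541S in either direction, and a share near these is not a result about the list. Of 10 other luminal progenitor and alveolar markers tested, 4 rose and 1 fell in WT, 4 rose in D542G and 5 rose in Y541S. Plet1 rose in D542G (2.30 ± 0.33, adjusted p = 0.000790) and Y541S (1.70 ± 0.32, adjusted p = 0.00200), and Ehf, an ETS factor like Elf5, in WT (1.30 ± 0.28, adjusted p = 0.00223). Lcn2, a secreted iron-siderophore binder, fell in WT by 1.34 on the log2 scale (adjusted p = 0.0293). Markers assigned to the same cell type thus did not all have the direction of the 6.

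Of 10 Kit signalling genes, 3 rose in WT, 3 rose and 1 fell in D542G, and 4 rose in Y541S. Pik3r1, the regulatory subunit of phosphatidylinositol 3-kinase, rose in WT (0.94 ± 0.17), D542G (0.78 ± 0.17) and Y541S (1.20 ± 0.17), with adjusted p of 0.000655, 0.00689 and 0.000393. The ligand Kitl was higher in Basal than in ML libraries, with 381.7, 411.7 and 349.1 against 118.7, 119.2 and 131.3 CPM in WT with vehicle, the reverse of its receptor. Of 10 tested genes of the Elf5 and prolactin list, 1 rose and 4 fell in WT, 2 rose and 4 fell in D542G, and 3 rose and 2 fell in Y541S. Stat5a, which transmits the prolactin signal, fell in WT by 2.85 on the log2 scale (SE 0.38, adjusted p = 5.95e-05), from 959, 1081 and 918 CPM to 109.9, 79.7 and 207.7 CPM, while Elf5 rose. It also fell in D542G, by 2.05 (adjusted p = 0.00271).

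The remaining lists are read against the same shares of all genes called. Of 9 genes around Cd14 and Toll-like receptor 4, 2 rose and 1 fell in WT, 2 rose in D542G and 2 rose in Y541S, and Ly96, the partner of Toll-like receptor 4, rose in WT (0.54 ± 0.15, adjusted p = 0.0133) and D542G (0.64 ± 0.15, adjusted p = 0.0107). Of 9 complement genes, 1 rose and 1 fell in WT, 3 rose in D542G and 2 rose in Y541S. Cd59a, which blocks the last step of complement attack and like Cd55 protects the cell that carries it, rose in D542G (1.60 ± 0.31, adjusted p = 0.00393) and Y541S (1.35 ± 0.31, adjusted p = 0.00593). Of 13 genes of retinoic acid metabolism and response, 5 rose and 1 fell in WT, 3 rose in D542G, and 3 rose and 2 fell in Y541S. Rarb, a retinoic acid receptor that is itself induced by retinoic acid, rose in WT (2.27 ± 0.64, adjusted p = 0.0122). Of 6 genes with a whey acidic protein domain, 1 rose and 2 fell in WT, 1 fell in D542G, and 1 rose and 2 fell in Y541S. Wfdc2 fell in WT by 2.35 (adjusted p = 0.00853), opposite to Wfdc18. Csn3, Elf3, Myd88 and Wfdc12 are listed at 0 in all 51 libraries and were not tested.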

How the data were processed

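RNA-seq was analysed in 51 libraries of sorted mouse mammary cells, in 17 groups of 3 by the genotype, treatment and population in the labels. The labels' protocols name a Qiagen RNeasy Micro Plus kit for the RNA and Nextera XT for the libraries. The values used were whole-number counts of each gene as the authors deposited them, unscaled per the file headers. Reads were placed on GRCm38, per the submitters' processing notes; aligner, counter and annotation: not given in the sources used here. Since the source name reads mature luminal for all samples, populations were taken from the cell type labels. Libraries held 21.4 to 60.1 M counts (median 32.9). GENCODE M21 gave names to 52489 of the 52636 gene identifiers.

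The tests used edgeR 4.0.16 in R 4.3.3, with quasi-likelihood fits, TMM scaling and the tool's own filter on low counts by group. Fits were by panel, with 18 ML libraries, 18 Basal, 9 LP, 9 of WT with giredestrant, 24 of the mutants with giredestrant and 18 with vehicle. Genes with a Benjamini-Hochberg adjusted p below 0.05 among all those fitted were called, and each SE was obtained from the log2 ratio and its F value (ratio over root F). CPM used TMM factors over all 51 libraries, and correlations a prior count of 2 and genes with at least 5 CPM in at least 1 group mean. Alternatives were DESeq2 1.42.0, another scaling (RLE), no filter, the sample number as a block, a fit of all 51 libraries, each library left out, and, added after seeing the data, scaling by total count. The differences of giredestrant effects in Basal cells were also added then.

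Same-numbered samples were taken as paired where the correlation of their deviations from the group means was over 0.1 for every pair, which held in 8 comparisons. The members, gene lists and rules were chosen with earlier results of these data known. From each list, up to 4 called genes with the largest change could be named, and for each member the 3 genes most correlated with it, while the levels of Kitl and Csn2 are given outside this rule. Promoter windows and start sites are those of RefSeq.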

Additional observations from a re-analysis of the deposited data

How the results depend on the processing

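All 54 called ratios of the 6 genes kept their sign under every alternative run, but many calls lay near the threshold. In ML cells under giredestrant, members called in WT numbered 2 in the fit of all 51 libraries (4 in the main fit) and 2 to 5 with each library left out. In D542G they numbered 1 in the fit of all 51 libraries (2 in the main fit) and 1 to 2 with a library left out, and in Y541S 4 by DESeq2 and 4 under scaling by total count (2 in the main fit), and 1 to 3. Aldh1a3 in WT ML, not called, ranged from −0.018 without giredestrant library 2 to 0.96 without library 3. For D542G against WT with vehicle, DESeq2 called 2 and total count scaling 3 members, against 0. In Basal cells, giredestrant calls numbered 1 to 5 in D542G and 1 to 4 in Y541S with a library left out. For Basal D542G against WT with giredestrant they numbered 1 by DESeq2, 1 in the fit of all 51 libraries and 0 to 1 with a library left out, and for Y541S 2 by DESeq2, 3 without the filter, 4 in the fit of all 51 and 0 to 1. With a library left out, ML and LP of Y541S against WT with giredestrant each gave 0 to 1. For LP against ML in WT, DESeq2 and the replicate block each called 1 member, against 0. Among comparisons that met the correlation rule for pairing, the block also moved the genes called for LP of Y541S against WT from 587 to 278. Those samples (r 0.145 to 0.201) are of different genotypes, so they share a number and not an animal. The block changed no other member's call. For the difference of giredestrant effects in Basal Y541S, DESeq2 called 1, against 0. Numbers of all genes called under the alternatives follow below, for some of these comparisons only. Of 90 member ratios that are not called and not printed, 41 changed sign under at least 1 alternative.

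Counts over all genes depended on the tool where few were called. DESeq2 called 827 genes for LP against ML in WT (11 by edgeR), 243 in D542G (8) and 884 in Y541S (420). It called 771 for LP of D542G against WT (5) and 1983 for Y541S (587), and 256 and 701 for Basal of D542G and Y541S against WT with vehicle (10 and 27). With giredestrant it called 1321 for ML (447) and 1788 for Basal (853) of D542G against WT. It called 2811 for ML of Y541S against WT with vehicle (1867), 2136 and 1895 for the differences of effects in ML (1129 and 994), 927 and 1624 for those in Basal (108 and 766), 2899 for giredestrant in WT Basal (1901) and 2538 for N (1665). The fit of all 51 libraries called 241, 110 and 665 genes for LP against ML in WT, D542G and Y541S, 1310 and 2657 for LP of each mutant against WT, 753 for ML of D542G against WT with giredestrant, and 32 and 71 for Basal with vehicle. Without the filter 145 and 33 genes were called for LP against ML in WT and D542G, 107 for LP of D542G against WT, 223 for the difference of effects in D542G Basal, and 50 and 158 for Basal with vehicle. Scaling by total count called 5771 and 3688 genes for ML of D542G and Y541S against WT with vehicle (3370 and 1867), 3588 and 2141 for the differences of effects in ML, 219 for that in D542G Basal, 22 for LP against ML in D542G and 105 for Basal Y541S with vehicle, where RLE scaling called 82. It split the called genes of ML under giredestrant in Y541S into 2754 higher and 1382 lower (2054 and 2228 with TMM) and the differences of effects in ML into 320 and 3268 in D542G (718 and 411) and 360 and 1781 in Y541S (684 and 310). It moved the share of higher calls by over 10 points in 13 other comparisons as well. In comparisons that did not meet the correlation rule for pairing, the block called 4 and 14 genes for Basal with vehicle and 0 for LP of D542G against WT.

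One limit is 3 libraries a group: with an SE of 0.23 to 0.73 on the log2 scale in ML, differences of less than about 1 between genotypes could often not be told from the spread. Larger ones could be missed too, as Wfdc18 in D542G against WT with vehicle (1.04 ± 0.38) was not called. For the differences of giredestrant effects in ML the SE was 0.32 to 1.01. The levels are counts of mixed sorted cells, and markers of other cell types moved with several results.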
